A study of Mus musculus with 4 samples.

Results

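The Z-disc and cytoskeletal anchor genes are 9 mouse genes whose proteins hold the contractile lattice of the muscle fibre in place. They are Actn2, Actn3, Des, Flnc, Myoz1, Ldb3, Csrp3, Xirp1 and Dmd. Their Ago2 binding was taken from chimeric eCLIP-seq of plantaris muscle after 10 days of mechanical overload (MOV). The assay pulls down Ago2, the carrier of miRNAs, and joins each miRNA to the RNA under it, so that a chimeric read names a miRNA and the place where it sat. The mice were C57BL/6J males of 5 months, and all muscles had undergone synergist ablation, the surgery that overloads the plantaris. The left plantaris received a control lentivirus (MOV control) and the right plantaris a lentivirus for a miR-1a-3p mimic (MOV mimic), both with a CMV promoter and TurboGFP as a reporter. Whole muscle was used, so fibres with and without the virus were mixed, and the methods give 1 sample per group. There was 1 library for MOV control and 1 for MOV mimic, while the 2 input libraries were not analysed here. No difference below has a replicate check, and every interval is a 95% interval. Those of reads, shares of reads and ratios cover counting error only. Those of medians and of overlap shares treat miRNA–peak pairs as separate units, though pairs share peaks and libraries.

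The members were chosen by name and position. All lines of both peak files that overlapped the GRCm38 (mm10) RefSeq span of 1 of the 9 genes on its own strand were taken, with every miRNA they named. Each line is a miRNA–peak pair, that is, 1 miRNA in 1 peak with an estimated number of chimeric reads. The 9 genes held 1160 of the 93468 pairs in the control and 1281 of 100897 in the mimic, which lay in 137 of 20754 and 156 of 21872 peaks. No pair of either library lay on the opposite strand of a member gene. All 9 genes had pairs in both libraries.

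The Z-disc is the plane where actin filaments of neighbouring sarcomeres meet. Alpha-actinins (Actn2 in all fibres, Actn3 in fast fibres) cross-link those filaments, and Ldb3 and Myoz1 bind alpha-actinin at the Z-disc. Flnc and Xirp1 bind each other and are linked to repair of the lattice, and Csrp3 is a LIM protein linked to the sensing of load. Des forms the intermediate filaments that tie neighbouring Z-discs together, and Dmd anchors the actin cytoskeleton to the membrane at the costamere. A miRNA recognises its target mainly through the seed, bases 2 to 8 of its 5′ end. miR-1a-3p and miR-206-3p share a seed, as do miR-133a-3p and miR-133b-3p, and these 4 are known as muscle miRNAs. Mimic delivery adds copies of miR-1a-3p to a fibre that already makes it.

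The sequences of miRNAs that led the reads on these genes are shown 5′ to 3′ with the seed, the main pairing part, in capitals. They are from RefSeq, and 165 of the 195 miRNAs found on the 9 genes matched the RefSeq table by name.
miR-206-3p: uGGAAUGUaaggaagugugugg
miR-133b-3p: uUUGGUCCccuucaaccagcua
miR-27a-3p: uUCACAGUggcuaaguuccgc
miR-27b-3p: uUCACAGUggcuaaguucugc
miR-23a-3p: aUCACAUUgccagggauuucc
miR-24-3p: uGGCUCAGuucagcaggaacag
miR-22-3p: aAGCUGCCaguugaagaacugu
miR-125b-5p: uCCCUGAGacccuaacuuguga
miR-27a-3p and miR-27b-3p have the same seed and differ near the 3′ end. miR-1a-3p, miR-133a-3p, miR-23b-3p and miR-378a-3p are given by name.

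Letters that pair with each whole seed were searched on the sense strand of the longest coding transcript of each gene, in the GENCODE annotation of mm9. The match of the miR-206-3p seed, ACATTCC, occurred in the coding sequence of 1 of the 9 genes, Actn3, and in no 3′ UTR among them. Over all genes of the annotation, 9.46% held it in the coding sequence and 7.98% in the 3′ UTR. The miR-133b-3p match GGACCAA was in no coding sequence of the 9 genes and lay in the 3′ UTR of Xirp1 at 2 places, against 11.96% and 6.26% of all genes with at least 1 match in the coding sequence and the 3′ UTR. The miR-23a-3p match AATGTGA was in the coding sequence of 4 of the genes and the 3′ UTR of Ldb3 (12.7% and 11.8% of all genes), and the miR-22-3p match GGCAGCT in the coding sequence of 4 of them (21.7% of all genes). The miR-27a-3p match ACTGTGA lay in the coding sequence of 3 genes and the 3′ UTR of Flnc (16.8% and 13.1% of all genes). CTGAGCC, for miR-24-3p, lay in the coding sequence of 4 genes and the 3′ UTR of 2 (17.98% and 13.5% of all genes), and CTCAGGG, for miR-125b-5p, in those of 5 and 4 (14.04% and 11.03%). Because some members are long, rates per kb serve better than shares of genes. In coding sequence the 9 genes had 0.0302 matches per kb for miR-206-3p against 0.0674 over all genes, 0.151 against 0.139 for miR-27a-3p, 0.151 against 0.111 for miR-23a-3p and 0.242 against 0.185 for miR-22-3p. The coding rates were 0.242 against 0.153 for miR-24-3p, 0.181 against 0.112 for miR-125b-5p and 0 against 0.0906 for miR-133b-3p. In the 3′ UTR at most 5 matches stood behind a rate. For miR-133b-3p it was 0.173 against 0.0604, from the 2 matches in Xirp1 alone. The 3′ UTR rates were 0 against 0.0784 for miR-206-3p and 0 against 0.112 for miR-22-3p. They were 0.0865 against 0.133 for miR-27a-3p and 0.0865 against 0.124 for miR-23a-3p. For miR-24-3p the rate was 0.173 against 0.143, and for miR-125b-5p 0.433 against 0.115. The windows below are shown because the same miRNA or its seed family was among the 3 leading miRNAs of the gene. Capitals mark the match, and no match shown overlaps another.
Actn3, coding sequence, match to the shared seed of miR-206-3p and miR-1a-3p, transcript bases 744 to 750: agaaatacctggACATTCCtaagatgctg
Ldb3, 3′ UTR, miR-23a-3p match, transcript bases 4828 to 4834: tctagcctttgtAATGTGAactttcaacc
Ldb3, coding sequence, miR-27a-3p match, transcript bases 2062 to 2068: atggagagccatACTGTGAgaaagactac
Csrp3, coding sequence, miR-22-3p match, transcript bases 229 to 235: cagcaccacagtGGCAGCTcatgagtcag
Xirp1, 3′ UTR, miR-133b-3p match, transcript bases 5013 to 5019: gtatgaggagatGGACCAAtttgggaata
Xirp1, 3′ UTR, miR-133b-3p match, transcript bases 5310 to 5316: catgtggaacaaGGACCAAgaaaaaaacg
Xirp1, coding sequence, miR-125b-5p match, transcript bases 1455 to 1461: tgttgcctctgtCTCAGGGtgtcccccag
Xirp1, 3′ UTR, miR-125b-5p match, transcript bases 4784 to 4790: aagcttctagccCTCAGGGaagccattat
Xirp1, 3′ UTR, miR-125b-5p match, transcript bases 4803 to 4809: aagccattatatCTCAGGGaaaaatacac
These positions are in mm9 transcripts and the peaks are in GRCm38, so windows and peaks were not laid over each other, and a match is not a measured site.

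The files summed to 232408 chimeric reads in MOV control and 259207 in MOV mimic, an unscaled ratio of 1.12. Ratios below are mimic over control after division by these totals. Most pairs on the 9 genes were weak. Pairs under 1 read made up 60.7% of them in the control against 64.2% in the mimic, while the 43 and 45 pairs of 10 or more reads held 49.9% and 53.4% of the reads. A peak of these genes named 8.47 miRNAs on average in MOV control and 8.21 in MOV mimic, against 4.50 and 4.61 over each library. Peaks were not matched for their reads in this contrast. Muscle fibre markers carried 10.9% of the reads of the control library and 12.6% of the mimic library, and none of their 5 genes was at 0. Heart, satellite cell and fat cell markers were all at 0 in both libraries, and fibroblast markers held 1.80% and 1.59%. Smooth muscle markers held 0.0442% and 0.0516%, and endothelial markers 0.0088% and 0.0151%. Macrophage markers held 0.0088% and 0.0140%, and nerve markers 0.0014% and 0. Having 0 chimeric reads does not show that a cell type was absent.

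All miRNAs together gave the 9 genes 2724 reads in the control (1.17% of the library) and 2836 in the mimic (1.09%). The Clopper-Pearson limits were 1.13% and 1.22% for the first share and 1.05% and 1.13% for the second. The ratio was 0.934 (0.885 to 0.984). Actn2, Flnc, Des and Actn3 held most of these reads in both libraries. Actn2 had 788 reads in the control against 780 in the mimic, and ranked 22nd and 24th among all genes. Des had 480 and 506 reads, and its control interval overlapped that of Flnc. Flnc had 524 in MOV control and 367 in MOV mimic, and Actn3 374 and 646, so Actn3 stood below Flnc in the control and above it in the mimic. Ldb3 followed with 196 and 187 reads and Dmd with 175 and 194, and the Poisson intervals of these neighbours overlapped in both libraries. Xirp1 had 78.5 and 74.0 reads. Myoz1 had 53.5 and 61.6 reads and Csrp3 53.9 and 21.1. In the control library Myoz1 and Csrp3 did not differ beyond their intervals, and in the mimic the interval of Csrp3 (13 to 32.1) lay below that of Myoz1 (47.5 to 79.5).

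**Figure D1:**
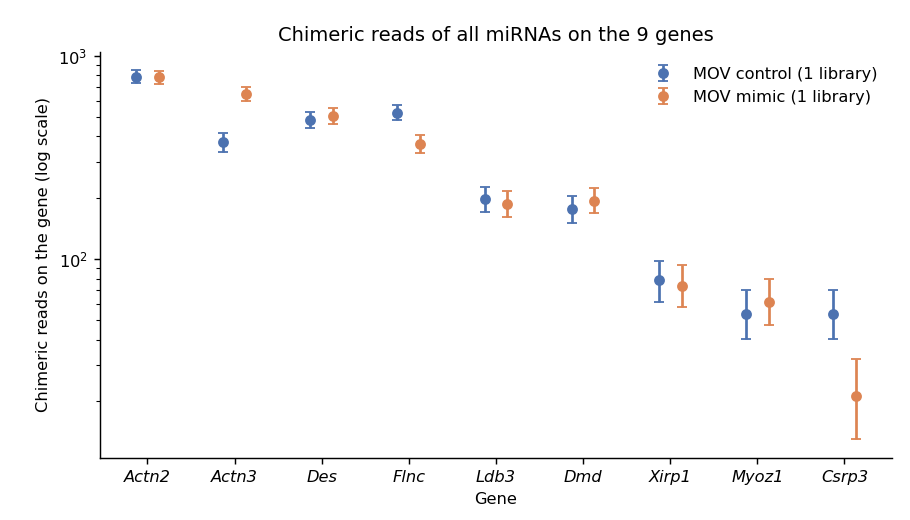
Chimeric reads of all miRNAs on each of the 9 genes (horizontal axis) on a log scale (vertical axis), with points for the MOV control and MOV mimic libraries and bars for the 95% Poisson interval. Actn2 had the most reads in both libraries, Actn3 was higher in the mimic (374 and 646), and Flnc and Csrp3 were lower.

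Read numbers per gene depend on gene length, so the order was also taken per kilobase of coding sequence, with lengths from the mm9 transcripts. On this scale Des led with 340 reads per coding kb in the control against 359 in the mimic. Actn2 followed with 294 and 291, and Actn3 with 139 and 239. Csrp3, with the shortest coding sequence of the 9, had 92.1 in MOV control and 36.1 in MOV mimic. Ldb3 had 90.3 and 85.9, Flnc 63.8 and 44.7, and Myoz1 60.1 and 69.1. Xirp1 (23.1 and 21.8) and Dmd (15.9 and 17.5) were lowest. The Dmd span of 2390 kb was used whole, introns included, since exons of GRCm38 were not used here. Reads came from the whole span of each gene, so genes with long untranslated parts stand higher per coding kb. Des has 1.41 kb of coding sequence in a transcript of 3.03 kb, and Actn2 has 2.685 kb in 3.01 kb. With more reads on a transcript of about the same length, Actn2 stands above Des per kb of transcript.

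Of the 9 genes, 1 was at least 1.5-fold higher in the mimic (Actn3) and 2 were at least 1.5-fold lower (Flnc and Csrp3). Among all 1161 genes with at least 50 reads summed over the libraries, 6.72% were past 1.5-fold higher and 10.2% past 1.5-fold lower, with a median ratio of 0.939 and a range from 0.587 to 1.58 between the 5th and 95th percentiles. The median of the 9 members was 0.887. The ratio of Actn3 was 1.55 (1.36 to 1.76), and that of Flnc was 0.628 (0.548 to 0.719), or 0.700 without division by library totals, which is not past 1.5-fold. Both lay inside the range of all genes. Csrp3 lay below it with 0.351 (0.200 to 0.587), on few reads. Actn2 had a ratio of 0.887 (0.803 to 0.981). The intervals of Des (0.946, 0.833 to 1.07), Dmd (0.990, 0.806 to 1.23), Myoz1 (1.03, 0.703 to 1.51), Ldb3 (0.853, 0.696 to 1.05) and Xirp1 (0.845, 0.610 to 1.18) all held 1.

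**Figure D2:**
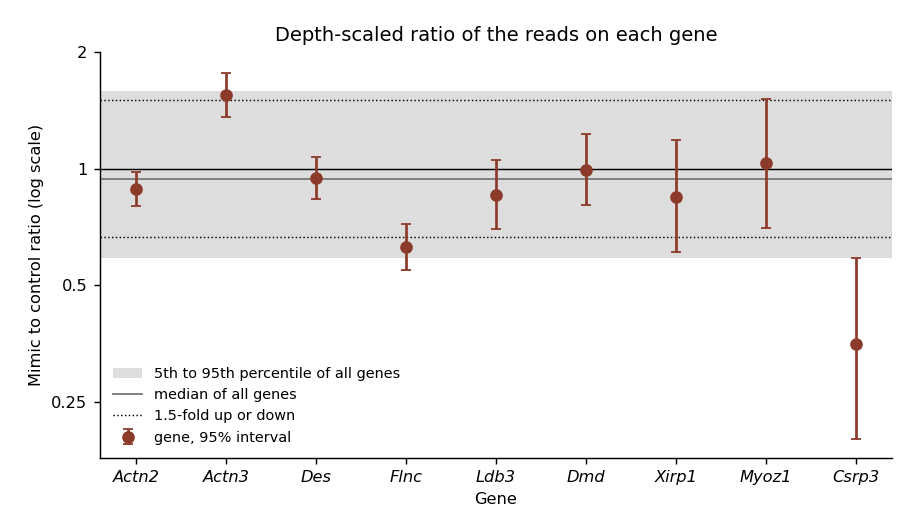
Mimic to control ratio of the reads on each gene after division by library totals (vertical axis, log scale), with 95% conditional binomial intervals. The grey band is the 5th to 95th percentile of the 1161 genes with at least 50 reads (0.587 to 1.58), the grey line their median and the dotted lines 1.5-fold. Csrp3 (0.351) lies below the band, and Actn3 (1.55) and Flnc (0.628) lie near its edges.

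The sum of the 9 genes rested on these members. Without Actn3 its ratio was 0.836 (0.788 to 0.886), and without Flnc it was 1.006 (0.9497 to 1.07). Fast fibre markers held 5.86% of the control library against 6.92% of the mimic library, and among them Myh4 had 5140 and 4015 reads and Myh1 6380 and 11359. Slow fibre markers held 0.0514% and 0.0489%. Chimeric reads follow both the amount of an RNA and how much Ago2 sits on it. In whole muscle, fewer fibres of a type and less RNA per fibre cannot be told apart. Fibre make-up and RNA level were not measured here, and their part in the ratio of Actn3, a fast fibre gene, was not tested.

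Actn3 was a gene of 1 dominant place. In the control, the peak chr19:4870909-4870989 (minus strand, 6920 nt from the 5′ end of the gene's span) held 70.4% of all reads of the gene, and miR-1a-3p alone had 222 reads there (194 to 253). In the mimic the same stretch was called as 2 adjoining peaks, chr19:4870907-4870962 with 374 reads of miR-1a-3p and chr19:4870963-4870993 with 68.8. Their sum of 443 gave a ratio of 1.78 (1.52 to 2.11) for the place. This was the 5th highest of 5422 miR-1a-3p pairs outside the mitochondrial chromosome in the control, and the larger of the mimic peaks was the 3rd highest of 6307. The place lies on the gene whose coding sequence holds the ACATTCC window shown above, but the coordinates were not matched to it.

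On all of Actn3, miR-1a-3p had 231 reads in the control against 458 in the mimic, 61.8% and 71.0% of the gene's reads. Its ratio was 1.78 (1.51 to 2.09). miR-206-3p, which has the same seed, had 25.9 and 36.6 reads with a ratio of 1.27 (0.752 to 2.20). miR-133a-3p had 49.3 and 77.6 reads with a ratio of 1.41 (0.986 to 2.08). Most of these were at chr19:4871793-4871840, where miR-133a-3p had 27.0 reads in MOV control and 58.8 in MOV mimic, a ratio of 1.95 (1.22 to 3.21). All miRNAs other than miR-1a-3p together had 143 and 188 reads on Actn3, with a ratio of 1.18 (0.943 to 1.48). Most of the reads that Actn3 had beyond its control number were therefore of miR-1a-3p.

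Actn2, the other alpha-actinin, carried a different set of miRNAs. miR-133a-3p held 355 reads in the control against 347 in the mimic (45.1% and 44.5% of the gene's reads), and miR-133b-3p 99.1 and 68.1. The ratio was 0.877 (0.754 to 1.02) for the first and 0.616 (0.445 to 0.847) for the second. The main peak, chr13:12280481-12280571 on the minus strand, had 197 reads of miR-133a-3p in MOV control and 196 in MOV mimic. The next peak, chr13:12308906-12308983, was also led by miR-133a-3p in both libraries, with 66.6 and 52.4 reads. miR-206-3p gave 45.1 and 52.5 reads on Actn2. miR-1a-3p was scarce there, with 22.4 reads (2.85%) in MOV control against 44.7 (5.73%) in MOV mimic, and its ratio was 1.79 (1.08 to 3.21). Of these, chr13:12336183-12336294 had 3.56 reads in the control against 15.3 in the mimic, the largest rise among shared pairs of the 9 genes with at least 10 reads in a library (3.84, 1.07 to 13.9). The miR-24-3p reads of the main peak went the other way, with 14.7 in MOV control and 1.77 in MOV mimic. Actn2 and Actn3 transcripts shared 56 of the 2861 stretches of 20 bases in Actn3. How the authors placed reads that fit both genes was not stated.

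**Figure D3:**
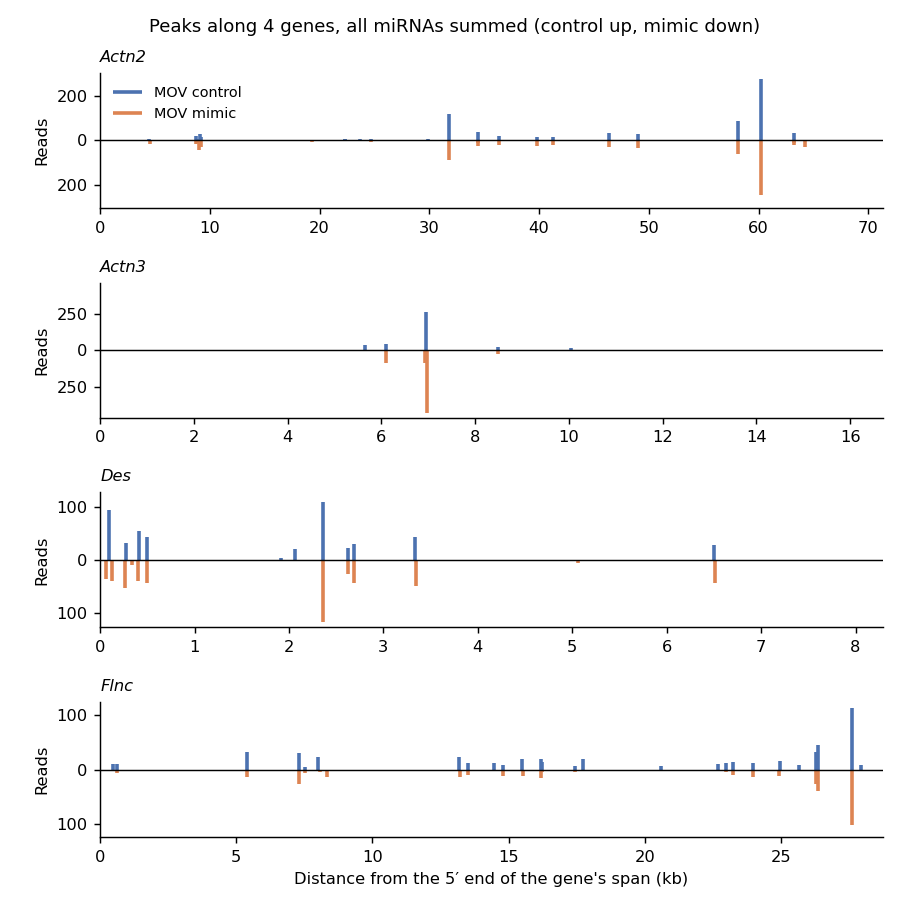
Reads of all miRNAs in each peak (vertical axis, MOV control upward and MOV mimic downward) against the distance of the peak's middle from the 5′ end of the gene's span in kb (horizontal axis), for Actn2, Actn3, Des and Flnc. Actn3 has 1 dominant place, split into 2 peaks in the mimic, while Des and Flnc spread their reads over many peaks.

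Des spread its reads over 11 peaks in the control against 13 in the mimic. miR-133a-3p led it with 98.3 reads in MOV control and 137 in MOV mimic, a ratio of 1.25 (0.960 to 1.64). Its highest pair was chr1:75362571-75362730, with 63.3 reads in the control against 69.7 in the mimic. miR-1a-3p had 75.0 and 64.9 reads on the gene, at 0.776 (0.549 to 1.098) after depth scaling. miR-378a-3p, the 3rd by reads, had 47.6 and 57.5. miR-206-3p had 39.4 and 20.8 reads, 0.474-fold after depth scaling (0.270 to 0.841). miR-133b-3p had 19.6 and 14.01.

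Within Des, places of miR-1a-3p differed in opposite directions. At chr1:75360331-75360433, 39 nt from the start of the gene's span, the control had 56.5 reads of miR-1a-3p. In the mimic the stretch was called as 2 peaks that together had 34.7, a ratio of 0.550 (0.351 to 0.853). Matched peak by peak, and among shared pairs with at least 10 reads in a library, this was the largest fall of the 9 genes, 56.5 to 5.98 reads, but that value left out the other piece of the split peak. miR-206-3p at the same place had 17.5 reads in the control and 4.90 in both pieces in the mimic, a ratio of 0.251 (0.0723 to 0.696). Further along, at chr1:75360531-75360593, miR-1a-3p had 6.04 reads in MOV control and 18.9 in MOV mimic (2.80, 1.09 to 8.69). miR-133a-3p had 8.10 and 19.5 there (2.16, 0.946 to 5.88). How the peak caller set the borders was not tested.

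Flnc had 26 peaks in the control against 25 in the mimic and was lower in most of its shared pairs. The shared pairs of Flnc had a median log2 ratio of -0.52 (-0.81 to -0.16) without depth scaling. Of these 97 pairs 34.0% were higher in the mimic, against 52.0% of shared pairs outside the 9 genes. miR-133a-3p led with 129 and 113 reads, a ratio of 0.789 (0.605 to 1.02). Its highest pair, chr6:29460702-29460825 near the 3′ end of the span, had 71.6 reads in MOV control and 65.9 in MOV mimic. miR-22-3p had 39.2 and 34.9 reads and miR-1a-3p 38.1 and 32.7, and both ratios had intervals that held 1. miR-206-3p was lower, with 45.2 and 21.4 reads (0.425, 0.237 to 0.717), and so was miR-133b-3p with 34.6 and 20.7 (0.536, 0.298 to 0.9502). Lower than these was the ratio of miR-23a-3p, with 28.3 reads in the control against 5.30 in the mimic (0.168, 0.0483 to 0.420). It is outside the leading and muscle miRNAs of the gene, and not every miRNA on Flnc was compared. A pair of miR-23a-3p at chr6:29441116-29441196 with 11.99 reads was the only control pair of 10 or more reads on the 9 genes without an overlapping pair of the same miRNA in the mimic. Without miR-1a-3p the ratio of Flnc was 0.617 (0.536 to 0.712).

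Ldb3 had the highest share of miR-23, miR-27 and miR-24 reads among the 9 genes. These are made from shared precursor clusters, and the 5 miRNAs of the 3 families (miR-23a-3p, miR-23b-3p, miR-27a-3p, miR-27b-3p and miR-24-3p) held 46.3% of the Ldb3 reads in MOV control and 41.6% in MOV mimic. Over the 9 genes they held 16.1% and 12.7%, and over all other pairs 8.71% and 8.37%. miR-133a-3p was first among single miRNAs with 48.4 and 42.1 reads, followed by miR-27a-3p with 22.8 and 29.6 and miR-23a-3p with 24.0 and 14.6. The highest control pair, miR-23a-3p at chr14:34526843-34526962, ended 144 nt before the 3′ end of the gene's span and had 22.7 reads in the control against 13.2 in the mimic (0.523, 0.236 to 1.04). miR-1a-3p had 3.50 and 9.80 reads on Ldb3, miR-133b-3p 7.22 and 3.89, and miR-206-3p 4.01 and 2.46. The interval of the miR-1a-3p ratio ran from 0.770 to 16.9.

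Csrp3 had 58 pairs in MOV control and 35 in MOV mimic. Its top pair in both libraries was miR-22-3p at chr7:48835544-48835626 on the minus strand, with 9.62 reads in the control against 5.0 in the mimic. On the whole gene miR-22-3p had 9.70 and 5.0 reads, miR-206-3p 7.21 and 0.596, and miR-1a-3p 3.54 and 4.51. miR-133a-3p and miR-133b-3p had 2.0 reads or fewer each in either library. The gene was lower without miR-1a-3p as well (0.296, 0.165 to 0.538).

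Myoz1 was led in the control by miR-27a-3p and miR-22-3p, which had 11.5 and 11.3 reads there and 3.79 and 4.36 in the mimic. The miR-27a-3p reads all lay at chr14:20650510-20650573 (0.295, 0.0703 to 0.986). In the mimic the top pair was let-7a-5p at chr14:20649449-20649544, with 6.68 reads against 1.97 in the control. In that library miR-1a-3p (7.19 reads, from 2.24 in MOV control) and miR-133a-3p (6.84, from 2.83) were both above miR-22-3p and miR-27a-3p, while miR-206-3p had 3.12 and 2.37 and miR-133b-3p 0.0233 and 1.18. Fewer than 8 reads stood behind each value of these 4 muscle miRNAs.

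Xirp1, whose protein binds filamin C, was led by miR-133a-3p with 36.04 reads in MOV control and 24.2 in MOV mimic (0.601, 0.341 to 1.03). miR-133b-3p had 8.24 reads in both libraries and miR-125b-5p 6.46 and 5.62. miR-1a-3p had 1.199 and 7.74 reads and miR-206-3p 0.828 and 0.556. miR-133a-3p and miR-133b-3p together held 56.4% and 43.8% of the Xirp1 reads, and Xirp1 was the gene with GGACCAA in its 3′ UTR. On Actn2, which had no such match in its coding sequence or 3′ UTR, they held 57.6% and 53.2%. The top pair was at chr9:120019262-120019374 with 12.9 reads in the control, where 2 mimic pairs together had 5.25. In the mimic it was at chr9:120014542-120014627, with 7.18 reads against 1.94 in the control.

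Dmd was led by miR-206-3p and miR-1a-3p, though neither its coding sequence nor its 3′ UTR held ACATTCC, the match of their seed. miR-206-3p had 47.1 reads in the control against 38.4 in the mimic, and miR-1a-3p 41.1 and 41.5. Together they held 50.3% and 41.3% of the gene's reads, the highest share after Actn3. The ratio was 0.732 (0.460 to 1.14) for miR-206-3p and 0.906 (0.583 to 1.45) for miR-1a-3p. The highest peak, chrX:83181515-83181672, lay 367 kb from the start of the span and had 28.9 and 20.7 reads of miR-206-3p. miR-133a-3p was higher in the mimic, with 11.1 and 27.2 reads (2.20, 1.06 to 4.92), and miR-133b-3p had 4.57 and 2.87. With pairs of at least 3 reads only, the ratio of Dmd was 0.657 in place of 0.990.

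**Figure D4:**
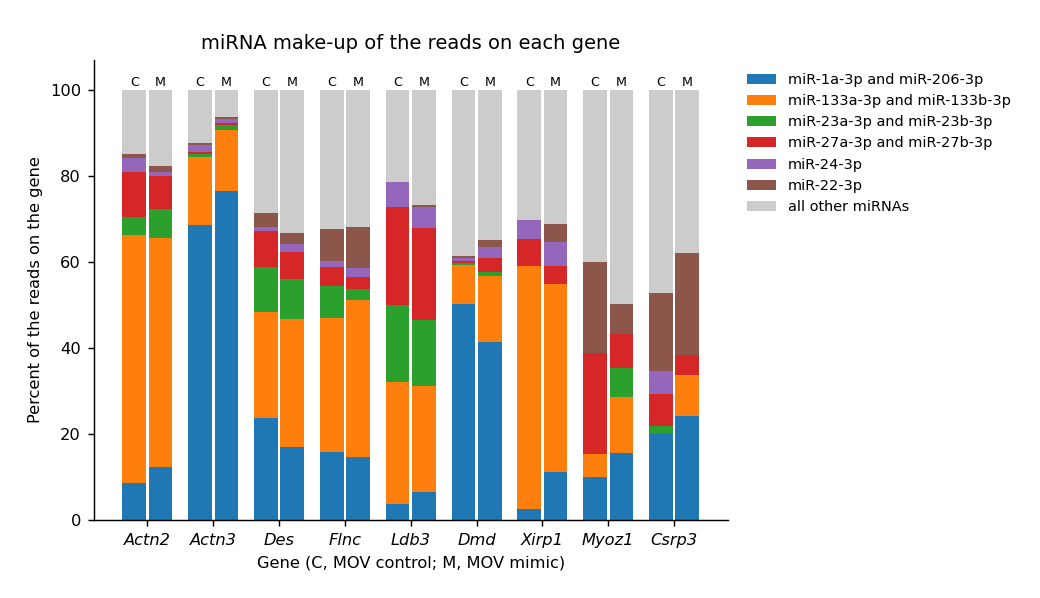
Share of the reads on each gene (percent, vertical axis) by miRNA family, with the MOV control (C) and MOV mimic (M) libraries side by side. Actn3 is mostly miR-1a-3p and miR-206-3p (68.7% and 76.6%), Actn2 and Xirp1 have most reads from miR-133a-3p and miR-133b-3p in the control, and Ldb3 has the largest share of miR-23 and miR-27.

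Summed over the 9 genes, miR-1a-3p made up 15.4% of the reads in MOV control (418 reads) against 23.7% in MOV mimic (671 reads). The ratio was 1.44 (1.27 to 1.63), against 1.17 (1.15 to 1.19) for miR-1a-3p on all other pairs of the libraries, where its share was 11.8% and 13.7%. Actn3 carried this difference. Without it the other 8 genes had 187 and 213 reads of miR-1a-3p, with a ratio of 1.02 (0.835 to 1.25). Of the 5 members with at least 20 reads of miR-1a-3p summed over the libraries, Actn2 and Actn3 were past 1.5-fold higher and none was past 1.5-fold lower. Among all 284 genes with as many miR-1a-3p reads, 24.3% were past 1.5-fold higher and 10.2% past 1.5-fold lower, with a median of 1.12. Des (0.776), Flnc (0.770) and Dmd (0.906) lay below that median.

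The other muscle miRNAs had ratios below 1 on these genes. miR-133a-3p, the most frequent, had 730 reads in MOV control and 777 in MOV mimic (0.955, 0.862 to 1.06), against a ratio of 1.099 (1.08 to 1.11) elsewhere. miR-206-3p had 218 and 176 reads (0.724, 0.590 to 0.887) and miR-133b-3p 183 and 132 (0.647, 0.513 to 0.813). Elsewhere these ratios were 0.851 (0.831 to 0.870) and 0.953 (0.929 to 0.977). miR-27a-3p was also lower on the 9 genes, with 138 and 99.3 reads (0.645, 0.492 to 0.839). The 4 muscle miRNAs together made up 56.9% of the reads on the 9 genes in the control against 61.9% in the mimic. Without Actn3 these shares were 52.5% and 53.4%. Of all other reads the 4 made up 41.8% and 44.3%. Names of miRNAs that are alike in sequence depend on the assignment of the reads, which was not described.

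Peaks of the 2 libraries were compared pair by pair. Of the 1160 control pairs on the 9 genes, 486 (41.9%, 39.0% to 44.8%) overlapped a mimic pair of the same miRNA by at least 1 nt, against 35.4% of all other control pairs. The share followed the reads. It was 30.3% for pairs under 1 read, 45.7% from 1 to under 3 reads, 77.4% from 3 to under 10 and 97.7% at 10 or more. For all other pairs these shares were 23.2%, 38.8%, 80.4% and 97.1%. By gene, Myoz1 had the highest share (65.8% of 38 pairs) and Csrp3 the lowest (25.9% of 58). Counted from the mimic, 43 of the 45 pairs of 10 or more reads on the 9 genes overlapped a control pair (95.6%). This share was not taken for mimic pairs of other genes. The pairs without a counterpart were miR-133a-3p on Actn2 at chr13:12276439-12276489 (20.7 reads) and on Flnc at chr6:29441443-29441511 (11.5 reads).

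The 474 shared pairs, each the other's largest overlap, had a median log2 ratio of -0.02 (-0.17 to 0.06) without depth scaling, against 0.05 for other shared pairs. Actn3 had the highest median of the members, 0.65 (0.22 to 1.29). Of its 46 shared pairs 76.1% were higher in the mimic, against 52.0% of the 30623 other shared pairs. Read numbers of shared pairs correlated with r = 0.71 on the log2 scale and rho = 0.73, as a description over pairs that share peaks and libraries. Of the 54 shared pairs with at least 10 reads in a library, 53 had a ratio after the pieces of split peaks were joined. The interval held 1 for 42 of them, lay above 1 for 4 and below 1 for 7. The 4 above were miR-1a-3p and miR-133a-3p on Actn3 and miR-1a-3p on Des and Actn2, each given above. The 7 below included miR-27a-3p on Actn2 (26.4 and 11.7 reads), Des (23.3 and 12.2) and Myoz1. The upper limits for Des (0.980) and Myoz1 (0.986) were close to 1. These intervals were not adjusted for the number of pairs.

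**Figure D5:**
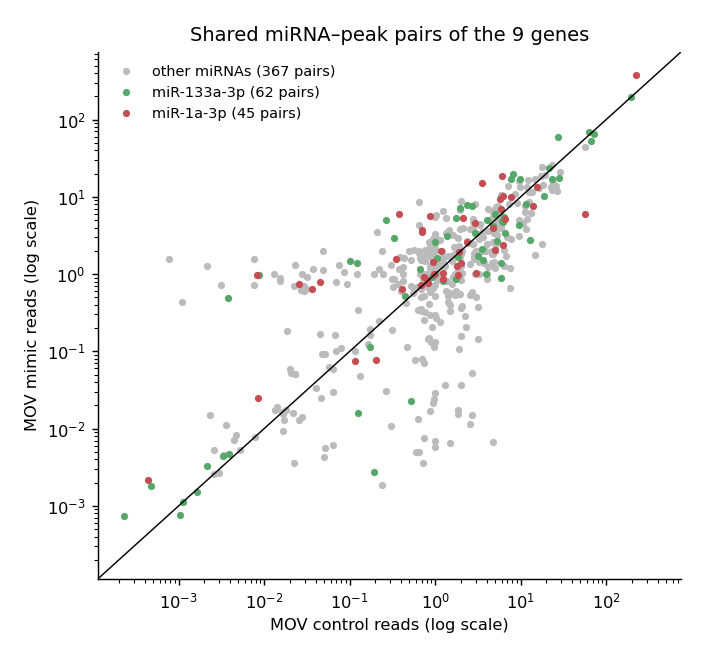
Reads of each of the 474 shared miRNA–peak pairs in the MOV control (horizontal axis) and the MOV mimic (vertical axis), both on log scales, with a line of equal reads. The 45 miR-1a-3p pairs are red and the 62 miR-133a-3p pairs green, the highest red point is the main place of Actn3 (222 and 374 reads, without the smaller mimic peak), and scatter is widest under 1 read.

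Other genes of the Z-disc, the intermediate filaments and the dystrophin complex were taken as a list of 69 genes. Of these, 67 had reads and 38 had at least 50. Among the 38, 1 was past 1.5-fold higher (Capza2) and 3 were past 1.5-fold lower (Sptbn1, Csrp2 and Tcap). Over all 1161 genes with at least 50 reads, 6.72% were past 1.5-fold higher and 10.2% past 1.5-fold lower. Neither count on the list was above that share. The median ratio of the 38 was 0.941 beside 0.939 over all genes. Capza2, a subunit of the actin capping protein, had 28.7 reads in MOV control and 61.4 in MOV mimic (1.92, 1.19 to 3.04). Sptbn1, a spectrin, had 137 and 85.8 reads (0.560, 0.425 to 0.742). Csrp2, a relative of Csrp3, had 33.2 and 21.9 (0.591, 0.332 to 1.06), and Tcap, the titin cap, 29.6 and 21.8 (0.659, 0.361 to 1.18), and both intervals held 1. Ankrd1 (1.49, 0.824 to 2.72) and Ank1 (1.43, 0.975 to 2.13) came next at the upper end. The genes with the most reads were Fhl1 (601 and 704), Xirp2 (498 and 627), Myot (383 and 440), Synpo2 (265 and 289) and Nrap (254 and 275), with ratios from 0.974 to 1.13.

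Similarity of miRNA make-up was measured by the cosine over 637 miRNAs, both libraries summed, against genes with at least 200 reads. Actn3 was most like Ldha (0.989) and Actn2 most like Cryab (0.987). Xirp1 was most like Tpm1 (0.970), Flnc like Myh4 (0.964) and Dmd like Eif4g2 (0.960). Des was most like Myom1 (0.924), Ldb3 like Sdha (0.880), Csrp3 like Myot (0.782) and Myoz1 like Pkm (0.746). Among the members themselves, Actn2 and Xirp1 were closest (0.961), and Actn2 and Actn3 had a cosine of only 0.281. The make-up of each gene was compared between the libraries in the same way, and ranged from 0.613 for Myoz1 and 0.633 for Csrp3, the genes with the fewest reads, to 0.997 for Actn3.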

How the data were processed

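The deposited values, 1 per miRNA and peak, were mostly fractions whose origin the authors did not state, and were treated here as estimated counts of chimeric reads. All read numbers and intervals rest on this. No scaling by the authors was stated. The submitters' processing notes name UMI-tools 1.1.1, cutadapt 3.2, STAR 2.7.7a, Bowtie 1.2.3, HOMER 4.11 and mm10. The methods name mm9, CLIPper and an amplification step with a miR-1 primer, and whether it was used for these files was not stated. Coordinates were of GRCm38 and are counted from 1. The strand of 6 members came from the RefSeq promoter table and that of 3 from mm9 GENCODE. The members, gene lists and comparisons were chosen with earlier results of these data known. Named were all members, their 3 leading and the 4 muscle miRNAs, top pairs, the 3 largest rises and falls of shared pairs, and the extremes of the other list. Some others, such as miR-23a-3p on Flnc, fell outside this rule. With 1 library per group no test between conditions was made. Clopper-Pearson, Poisson and conditional binomial intervals of reads used rounded reads. The Clopper-Pearson interval of the overlap used counts of pairs, and order-statistic intervals of medians used log2 ratios of unrounded reads. The computation of ratios was checked on simulated whole-number Poisson reads. These differ from the mostly fractional deposited values, so the check cannot show how well the intervals hold for those values. Python 3.11.15, numpy 2.4.6, pandas 2.3.3 and scipy 1.17.1 were used. A fold of 1.5 marked a call.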

Additional observations from a re-analysis of the deposited data

How the results depend on the processing

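No paired analysis was possible because there was a single library in either group. The reads per library limit the smaller genes most, and no setting replaces a replicate. For the comparisons, 69 alternatives were run. A value left its 95% interval, or a count changed by over 1.5 times, in 38 of them, 30 showed no such move, and 1 turned direction. That was the ratio of all reads on the 9 genes, 1.04 without division by library totals. Leaving out Actn3 was chosen after seeing the data. It gave that ratio as 0.836, the miR-1a-3p ratio as 1.02, the shares of library reads as 1.011% (control) and 0.845% (mimic), and the miR-1a-3p shares as 7.96% and 9.72%. Without Actn2, the gene with the most reads, the library shares were 0.833% and 0.793% and the miR-1a-3p shares 20.5% and 30.5%. Pairs of at least 3 reads gave library shares of 1.27% in the control, miR-1a-3p shares of 18.5% and 29.98%, and an overlap of 55.1%. Pairs of at least 1 read gave a miR-1a-3p share of 25.7% in the mimic and an overlap of 49.6%. Counting pairs in place of reads gave library shares of 1.24% and 1.27% and miR-1a-3p shares of 6.12% and 6.32%. Totals without the mitochondrial chromosome and Rn18s-rs5 gave library shares of 1.36% and 1.26%. Adding miR-206-3p gave shares of 23.4% and 29.9% and a ratio of 1.19. Overlap was 36.8% at 50% reciprocal overlap and 79.1% with any miRNA. The median log2 ratio of shared pairs was -0.17 after division by library totals. A fold of 2 left 0 members higher and 1 lower (Csrp3), and 0 other genes higher and 0 lower. Without division by totals 1 member was lower (Csrp3, with Flnc lost at 0.700), and 3 other genes were higher. For miR-1a-3p reads alone 2 members were higher and 0 lower, of 5 with enough reads. At 100 reads per gene 0 of 23 other genes were higher and 1 was lower. No share of all genes was taken at a fold of 2, without division by totals or at 100 reads per gene. Counts at those settings therefore stand without a comparison. Of the 27 alternatives for single members, 25 stayed within the interval, and Actn2 without division (0.990) and Dmd with pairs of at least 3 reads (0.657) did not.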
